A study of Homo sapiens with 6 samples.

Results

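The genes described here act in homologous recombination and in the Fanconi anaemia pathway, with the kinases that report broken or stalled DNA. They were named as a list of 43 genes, and a gene was measured where the platform annotation gave at least 1 probe set its symbol alone. Of its probe sets, the one with the highest mean over all arrays stood for the gene. This left 39 of the 43 among 19775 genes tested, and BRCA2, FANCA, FANCD2 and RBBP8 were not analysed here. RNA came from the human leukaemia line KOPTK1, established from T-cell acute lymphoblastic disease and cultured for 48 h with 1 µM PD0332991 (n = 3 arrays) or with vehicle (n = 3 arrays), and was hybridised to Affymetrix arrays. PD0332991 (palbociclib) inhibits CDK4 and CDK6, the kinases that act with D-type cyclins to inactivate the retinoblastoma protein and so free the E2F transcription factors. All samples come from 1 cell line, and the submitters call the replicates biological. The question is which repair genes differ in level after CDK4/6 inhibition. It is also asked whether repair effectors known as E2F targets differ in this from the damage sensors and checkpoint kinases.

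Homologous recombination repairs double-strand breaks from a sister chromatid, so it works mainly in S phase and G2. Broken ends are trimmed to single strands, BRCA1, PALB2 and BRCA2 prepare them for strand exchange, and joint molecules are later dissolved by the BLM complex or cut by nucleases. The Fanconi core complex, with its E2 enzyme UBE2T, attaches ubiquitin to the FANCD2 and FANCI pair at crosslinked DNA, and USP1 removes it. ATM and ATR are the apical kinases of the damage response, the MRE11, RAD50 and NBN complex recruits ATM to breaks, and CHEK1 and CHEK2 carry the signal onward. Many of these effectors are textbook E2F target genes, while the apical sensors are found in resting cells as well.

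Promoter sequences of some effectors and of ATR and ATM are shown first, because E2F binds a short GC-rich element near the start of its targets. Each stretch is read from RefSeq (GRCh38.p14), 5′ to 3′ on the gene's strand, from 150 bases before the gene's start to 20 bases into it. Capitals mark the E2F core searched for. RAD54L and EXO1 are the 2 effectors with the largest decreases whose window holds the core. UBE2T is the 1 matched effector without it, and ATR and ATM are the apical kinases, chosen by name and not by their change.
RAD54L, chr1:46247538-46247707, plus strand: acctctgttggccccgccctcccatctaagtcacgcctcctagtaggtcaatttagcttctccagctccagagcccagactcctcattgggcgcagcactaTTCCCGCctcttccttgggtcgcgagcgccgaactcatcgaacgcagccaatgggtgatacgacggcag
EXO1, chr1:241848054-241848223, plus strand: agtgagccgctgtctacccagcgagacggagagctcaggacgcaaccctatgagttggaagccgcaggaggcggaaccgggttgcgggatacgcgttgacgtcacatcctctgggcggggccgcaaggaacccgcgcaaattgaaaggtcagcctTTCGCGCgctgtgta
UBE2T, chr1:202341917-202342086, minus strand: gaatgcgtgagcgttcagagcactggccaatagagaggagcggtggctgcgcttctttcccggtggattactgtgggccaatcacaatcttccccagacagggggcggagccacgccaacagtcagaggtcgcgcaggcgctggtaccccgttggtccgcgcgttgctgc
ATR, chr3:142578714-142578883, minus strand: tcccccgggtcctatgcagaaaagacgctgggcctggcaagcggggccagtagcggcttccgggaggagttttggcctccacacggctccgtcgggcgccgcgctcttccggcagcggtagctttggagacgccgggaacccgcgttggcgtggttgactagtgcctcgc
ATM, chr11:108222917-108223086, plus strand: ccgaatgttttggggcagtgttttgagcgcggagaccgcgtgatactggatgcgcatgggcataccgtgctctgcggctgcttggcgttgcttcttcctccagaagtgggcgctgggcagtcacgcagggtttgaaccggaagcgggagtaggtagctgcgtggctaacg

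The core lay 49 bases before the start of RAD54L and began at base 6 of EXO1. The core had 4 forms, TTCCCGC as at RAD54L, TTCGCGC as at EXO1, and the related spellings TTGCCGC as well as TTGGCGC, each searched on both strands in windows of 250 bases before and 50 bases after each annotated start of a gene. A stretch can match on both strands, and a gene counted once however many windows or matches it had. Windows were matched for 35 of the 39 measured genes, and NBN, FANCI, RMI2 and RAD54B had no entry used here. The core was present for 10 of 11 effectors, for 0 of 5 sensors and checkpoint kinases and for 11 of the 19 other members, beside 3136 of 15384 genes tested (20.4%). It was also present at FANCF, which rose, and at XRCC2, XRCC3 and RAD52, which did not pass the test on level. CHEK1 and CHEK2 fell with no core in their windows. Among members with a window, the core was held by 17 of 25 that fell and by 4 of 10 that did not. Because the effectors were picked as known E2F targets, their share is not independent evidence. CCAAT, bound by NF-Y, was in the windows of 7 of 11 effectors and 3 of 5 sensors and checkpoint kinases, beside 41.7% of all genes. These matches describe the letters only.

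Most of the recombination and Fanconi genes fell with PD0332991. By limma, 28 of the 39 were lower, where 13.6% of all genes tested were lower, and 3 were higher, where 15.6% of all genes were higher, and 8 did not pass (adjusted p under 0.05). Their median change was −1.25 on the log2 scale (2.39-fold lower), beside 0.01 over all genes. At least 2-fold decreases were found in 21 members (2.55% of all genes) and at least 4-fold decreases in 10 (0.753% of all genes). In 29 members every PD0332991 array lay below every vehicle array (20.0% of all genes), and in 5 every one lay above (23.0% of all genes). Values are probe set intensities, and fold changes are PD0332991 over vehicle on the scale of log2(intensity + 16), which understates changes of dim genes. In a bulk culture, fewer cells in S phase and G2 and less RNA per cell cannot be told apart.

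**Figure D1:**
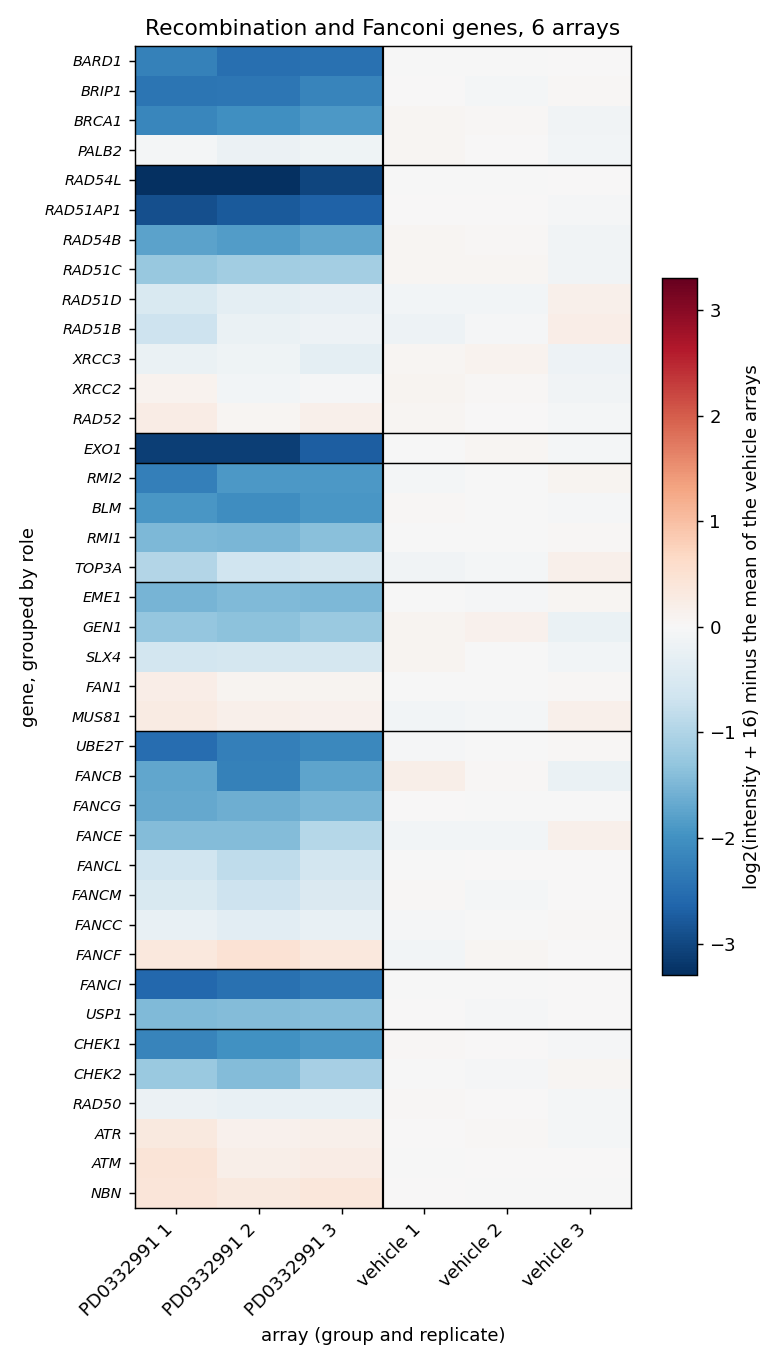
Level of each of the 39 genes (rows, grouped by role) on the 3 PD0332991 and 3 vehicle arrays (columns), as log2(intensity + 16) minus the mean of the vehicle arrays. Blue rows are lower with PD0332991 on all 3 arrays, as in RAD54L and EXO1, while FANCF, NBN, ATM and ATR are pale red there.

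Array medians lay between 49.1 and 54.3, and arrays correlated across genes at 0.993 to 0.996 within a group and 0.976 to 0.979 between groups. The T cell markers CD3D, CD3E, CD3G, CD2, CD5, CD7, LCK, ZAP70, PTCRA, CD1A and CD8A were all present, ZAP70 for example at 1620 with PD0332991 and 874 with vehicle, and CD4 was at 12.0 with PD0332991 and 7.85 with vehicle. Of the markers of other cells, only CD14 and LYZ were under 16 in both groups, whereas the B cell gene CD79A was at 543 with PD0332991 and 275 with vehicle. Next brightest were HBB, at 167 with PD0332991 and 175 with vehicle, and MPO, at 83.8 with PD0332991 and 104 with vehicle. Of 11 measured markers of other cell types 1 rose and 1 fell, and their summed intensity was 1014 to 1223 with PD0332991 and 827 to 913 with vehicle. The summed T cell markers were 30229 to 31734 with PD0332991 and 24073 to 26249 with vehicle. The part of these shifts in the results was not tested.

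BRCA1 and its partners BARD1 and BRIP1 fell, and PALB2 did not pass the test. BARD1, the obligate ubiquitin ligase partner of BRCA1, had 246, 206 and 207 with PD0332991, against 1213, 1224 and 1236 with vehicle. Its log2 fold change was −2.40 (SE 0.08, limma adjusted p = 2.4e-05), 5.27-fold lower. BRCA1 itself had 219.8, 242 and 266 with PD0332991, against 1075, 1070.3 and 960.2 with vehicle, or −2.02 in log2 terms (SE 0.09, limma adjusted p = 4.6e-05). The groups of both genes were far apart, and every probe set of both fell. BRIP1 (FANCJ), the helicase bound by BRCA1, had 502, 512 and 590.0 with PD0332991, against 2796, 2611 and 2845 with vehicle, 5.03-fold lower. PALB2, which bridges BRCA1 and BRCA2, had 529, 484 and 501 with PD0332991, against 577, 562 and 521 with vehicle. Its groups overlapped, and its change of −0.13 (SE 0.07, limma adjusted p = 0.22) did not pass.

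Among strand exchange factors, RAD54L, RAD51AP1 and RAD54B fell most while RAD51B, XRCC2, XRCC3 and RAD52 did not pass. RAD54L, the motor that remodels joint molecules, had 79.7, 75.9 and 105 with PD0332991, against 959, 968 and 985 with vehicle. No other member fell as far: RAD54L was 9.67-fold lower, at −3.27 on the log2 scale (SE 0.11, limma adjusted p = 2.4e-05), and ranked 30 by decrease among all 19775 genes. RAD51AP1, which stimulates strand invasion, had 449, 493 and 535 with PD0332991, against 3519, 3484 and 3381 with vehicle, 6.86-fold lower. RAD54B, a relative of RAD54L, had 230.2, 219 and 242 with PD0332991, against 871, 853 and 759 with vehicle, 3.42-fold lower. No PD0332991 array of these 3 genes came near a vehicle array.

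RAD51B, RAD51C, RAD51D, XRCC2 and XRCC3 act in 2 complexes that assist strand exchange, with RAD51C in both. RAD51C had 614, 659 and 679.5 with PD0332991, against 1558, 1543 and 1364 with vehicle, or −1.17 in log2 terms (SE 0.08, limma adjusted p = 1.8e-04). RAD51D, at −0.37 (SE 0.10, limma adjusted p = 0.038), lost its call when any 1 of the 6 arrays was left out (adjusted p 0.062 to 0.096). RAD51B at −0.36, XRCC3 at −0.22 and XRCC2 at −0.00 did not pass. XRCC2 had 974, 839 and 874 with PD0332991, against 949, 922 and 817 with vehicle, so its groups overlapped. Its 1 probe set has an ID ending in _x_at, a class that can match several transcripts. XRCC2 is not alone in this. BRCA1, RAD51C, USP1 and CHEK2, which fell, and XRCC3 and MUS81 have only probe sets with IDs ending in _x_at or _s_at. XRCC3 was dim, at 39.5 ± 3.50 with PD0332991 and 49.0 ± 6.57 with vehicle (SD, n = 3 each), and passed only without vehicle replicate 3 (−0.31, adjusted p = 0.041). RAD52, an annealing factor, was at 0.15 (SE 0.07, limma adjusted p = 0.18).

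In end resection and in the removal of joint molecules, the change differed by subunit. EXO1, the exonuclease of long-range resection, had 94.3, 94.9 and 127 with PD0332991, against 931, 981 and 891 with vehicle, 7.87-fold lower (log2 fold change −2.98, SE 0.12, limma adjusted p = 3.1e-05). All 4 subunits of the dissolvasome, which unlinks double Holliday junctions, fell. BLM, its helicase, had 363, 334 and 361 with PD0332991, against 1455, 1419 and 1391 with vehicle, 3.90-fold lower. RMI2 had 122, 162 and 161 with PD0332991, against 609, 635 and 682 with vehicle, 4.03-fold lower. RMI1, the other OB-fold subunit, was at −1.46 and TOP3A, the topoisomerase, at −0.74 (SE 0.13, limma adjusted p = 0.0075) on the log2 scale.

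The nuclease MUS81 and its partner EME1 did not move together. EME1, the non-catalytic subunit, had 498, 523 and 517 with PD0332991, against 1445, 1442 and 1528 with vehicle, 2.81-fold lower (log2 fold change −1.49, SE 0.06, limma adjusted p = 2.8e-05). MUS81 had 936, 872 and 849 with PD0332991, against 721, 744 and 868 with vehicle, and its change of 0.19 (SE 0.09, limma adjusted p = 0.18) did not pass. The groups of EME1 were separate and those of MUS81 overlapped. Without vehicle replicate 3, MUS81 was at 0.27 (adjusted p = 0.042). GEN1, a Holliday junction resolvase, was 2.44-fold lower, with 333, 313 and 349 with PD0332991, against 878, 916 and 712 with vehicle. SLX4, the scaffold of several nucleases, was at −0.59 (SE 0.06, limma adjusted p = 0.0012), and at −0.24 (adjusted p = 0.074) over the mean of its 2 probe sets. FAN1, a nuclease recruited by the ubiquitinated FANCD2 and FANCI pair, was at 0.13 (SE 0.06, limma adjusted p = 0.17).

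**Figure D2:**
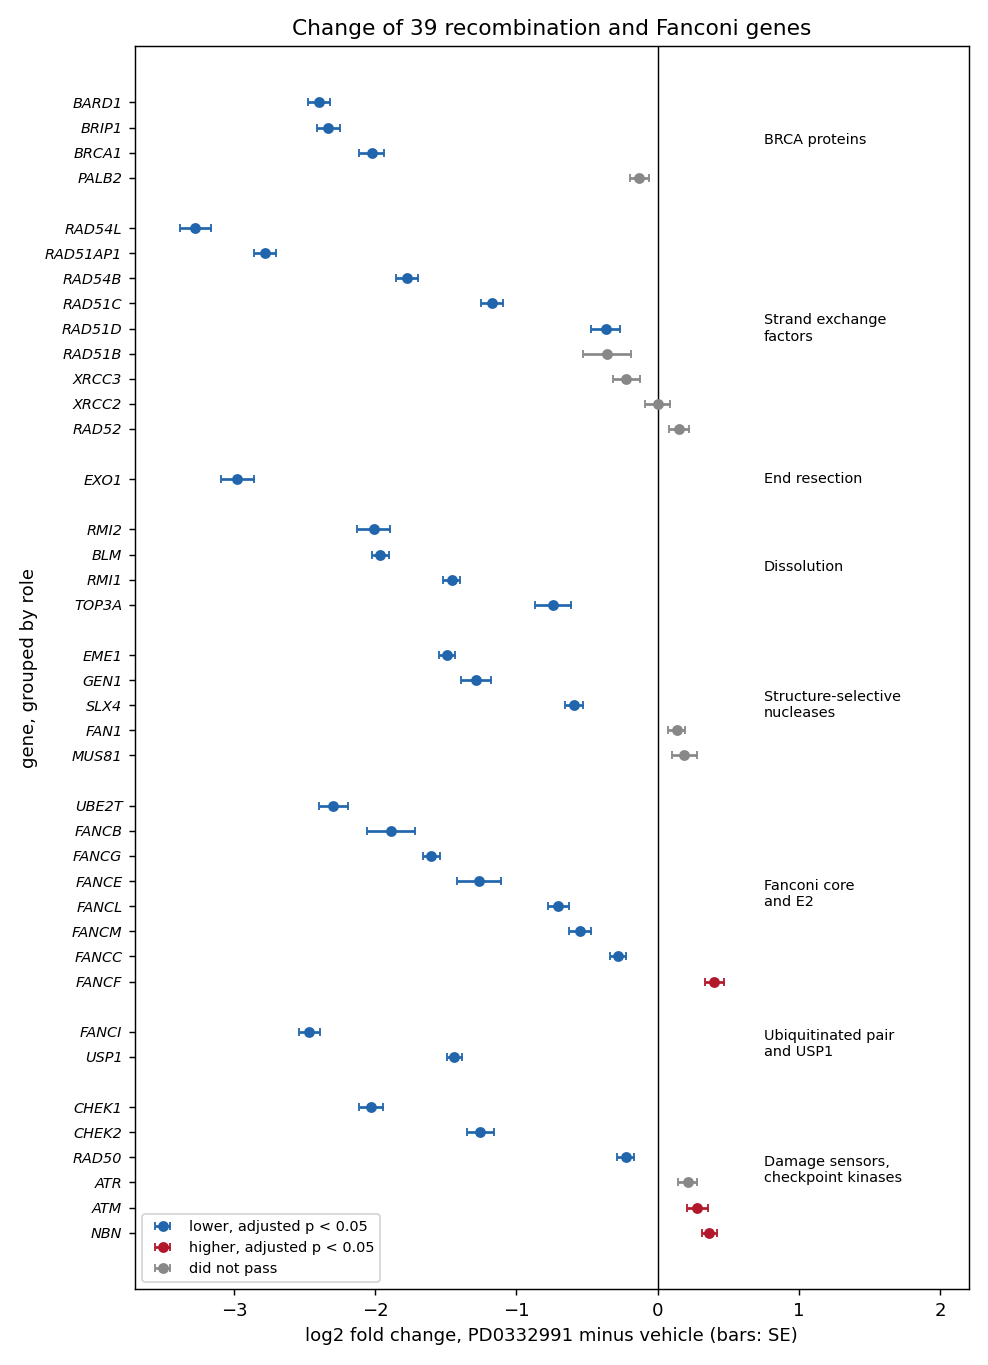
Log2 fold change of each of the 39 genes, PD0332991 minus vehicle, with SE (bars) from limma over 3 arrays per group, grouped by role. Values run from −3.27 for RAD54L to 0.40 for FANCF, and every role group except end resection, dissolution and the ubiquitinated pair with USP1 holds genes that did not fall.

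In the Fanconi core complex and its E2, 7 of 8 measured genes fell (13.6% of all genes fell) and 1 rose (15.6% of all genes rose). Their changes ranged from −2.30 to 0.40 on the log2 scale. UBE2T had 254, 306 and 334 with PD0332991, against 1479, 1504 and 1564 with vehicle, 4.91-fold lower (log2 fold change −2.30, SE 0.10, limma adjusted p = 5.0e-05). FANCL, the ligase subunit that UBE2T serves, had 1528, 1332 and 1566 with PD0332991, against 2394, 2414 and 2409 with vehicle, 1.63-fold lower. Neither gene had overlapping groups. FANCB, the X-linked core subunit that pairs with FANCL, had 61.6, 38.9 and 60.9 with PD0332991, against 275, 244 and 204 with vehicle, or −1.89 in log2 terms (SE 0.17, limma adjusted p = 5.7e-04). FANCG, a core subunit that binds FANCA, had 194, 205 and 219.8 with PD0332991, against 665, 653 and 658 with vehicle, 3.04-fold lower.

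FANCE, which contacts FANCD2, was at −1.26 and FANCM, the translocase that anchors the complex to DNA, at −0.55, and both passed. FANCM was at −0.21 (adjusted p = 0.22) on its 1 probe set whose ID does not end in _x_at or _s_at. FANCC, at −0.28 (SE 0.06, limma adjusted p = 0.015), kept no call once vehicle replicate 2 was left out (adjusted p = 0.055) or over the mean of its probe sets (−0.19, adjusted p = 0.33). FANCF, an adaptor of the core, was the largest increase of the 39, with 697, 764 and 694 with PD0332991, against 509, 562 and 549 with vehicle. Its log2 fold change was 0.40 (SE 0.07, limma adjusted p = 0.0069), and 0.23 (adjusted p = 0.078) over the mean of its 2 probe sets. Every PD0332991 array of FANCF lay above the vehicle arrays.

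Both measured genes of the ubiquitin switch fell. FANCI had 379.9, 418 and 449.9 with PD0332991, against 2349, 2353 and 2402 with vehicle, 5.53-fold lower (log2 fold change −2.47, SE 0.07, limma adjusted p = 2.4e-05), and all 3 of its probe sets fell. USP1, the deubiquitinase, had 2613, 2651 and 2702 with PD0332991, against 7337, 7094 and 7255 with vehicle, 2.71-fold lower. WDR48 (UAF1), the cofactor of USP1, was at 0.16 (SE 0.08, limma adjusted p = 0.18), and is named after its value was seen.

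The kinases downstream of the sensors fell, while the 4 apical genes moved by less than 0.4 on the log2 scale. CHEK1, the kinase activated by ATR, had 365, 419.6 and 447 with PD0332991, against 1756, 1745 and 1661 with vehicle, 4.08-fold lower (log2 fold change −2.03, SE 0.09, limma adjusted p = 4.0e-05). CHEK2, the kinase activated by ATM, had 156, 134 and 173 with PD0332991, against 383, 379.6 and 404 with vehicle, 2.39-fold lower. Both kinases had separate groups, and 3 of the 4 probe sets of CHEK1 fell.

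NBN, the subunit that brings ATM to breaks, had 3238, 3119 and 3207 with PD0332991, against 2508, 2461 and 2439.9 with vehicle. Its log2 fold change was 0.37 (SE 0.05, limma adjusted p = 0.0030). Of its 5 probe sets 4 rose, all with IDs ending in _x_at or _s_at. The fifth, with neither ending, had means of 63.7 with PD0332991 and 57.4 with vehicle. That probe set was at 0.12 and did not pass (limma adjusted p = 0.45). ATM had 1465, 1249 and 1289 with PD0332991, against 1076, 1097 and 1104 with vehicle, or 0.28 in log2 terms (SE 0.07, limma adjusted p = 0.035). All PD0332991 arrays of both genes were above the vehicle arrays. The ATM call was kept without PD0332991 replicate 2 and lost without PD0332991 replicate 1 (adjusted p = 0.0504) or 3 (0.071) or vehicle replicate 1 (0.106), 2 (0.097) or 3 (0.069). Over the mean of its 6 probe sets ATM was at 0.14 (adjusted p = 0.26).

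ATR had 1793, 1603 and 1634 with PD0332991, against 1468, 1472 and 1389.7 with vehicle, or 0.21 in log2 terms (SE 0.07, limma adjusted p = 0.060). Its groups did not overlap, and the brightest of its probe sets without _s_at in the ID gave 0.37 (adjusted p = 0.0049). RAD50, the ATPase of the break-binding complex, had 801, 768 and 766 with PD0332991, against 943, 926 and 873 with vehicle, at −0.23 (SE 0.06, limma adjusted p = 0.029). The RAD50 call was lost without PD0332991 replicate 2 (0.080) or 3 (0.093) or vehicle replicate 1 (0.099) or 2 (0.100), and with quantile normalization (0.065) or 75th percentile centring (0.054). Its other 2 probe sets were at 0.09 and 0.16 and did not pass. MRE11, the nuclease of the same complex, was no member of the list and is named after its value was seen. It had 798, 838 and 858 with PD0332991, against 1641, 1547 and 1491 with vehicle, or −0.89 in log2 terms (SE 0.06, limma adjusted p = 2.3e-04).

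**Figure D3:**
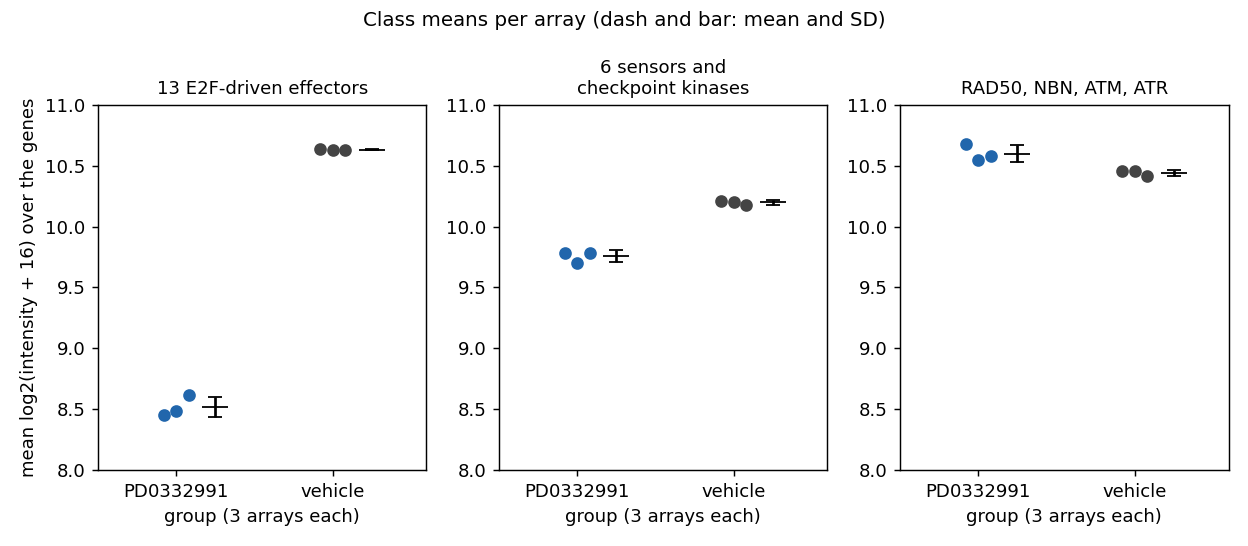
Mean log2(intensity + 16) per array over the 13 measured E2F-driven effectors, the 6 sensors and checkpoint kinases, and RAD50, NBN, ATM and ATR alone, with PD0332991 left of vehicle in each panel (points are arrays, dash and bar the mean and SD of 3). The effectors averaged 8.52 with PD0332991 and 10.63 with vehicle, the 6 sensors and checkpoint kinases 9.76 with PD0332991 and 10.20 with vehicle, and the 4 apical genes averaged 10.60 with PD0332991 and 10.44 with vehicle.

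E2F-driven effectors were set against damage sensors and checkpoint kinases as classes. The second class was drawn up by role, and whether its genes, CHEK1 and CHEK2 among them, are E2F targets was not tested. It therefore does not stand for genes outside E2F control. The effectors comprised 16 genes, BRCA1, BRCA2, BARD1, BRIP1, RAD51AP1, RAD54L, XRCC2, EXO1, BLM, RMI2, EME1, FANCA, FANCD2, FANCI, UBE2T and USP1, of which 13 were measured. Of these 13, 12 fell and 0 rose, and XRCC2 did not pass. Their median change was −2.30 on the log2 scale, with 0 higher at an unadjusted p under 0.05 in limma. Among the 6 sensors and checkpoint kinases 3 fell and 2 rose, and ATR did not pass. Their median change was −0.01, while their mean level was lower on every PD0332991 array, at 9.76 ± 0.05 with PD0332991 and 10.20 ± 0.02 with vehicle (SD, n = 3 each). The 20 measured genes of neither class lay between, with 13 lower, 1 higher and a median of −0.57. Over all genes 13.6% fell and 15.6% rose.

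Per array, the effector mean minus the sensor mean on the log2 scale was −1.33, −1.21 and −1.17 with PD0332991, against 0.42, 0.43 and 0.45 with vehicle. The difference between groups was −1.67 and came with no overlap. With the vehicle arrays within an SD of 0.01 and the PD0332991 arrays within an SD of 0.08, it was larger than the spread between replicates. The effector class was drawn up from textbook knowledge with results of these arrays known, so its direction is not independent evidence and no p is given. The mean of RAD50, NBN, ATM and ATR alone was 10.60 ± 0.07 with PD0332991 and 10.44 ± 0.03 with vehicle (SD, n = 3 each). That mean leaves out CHEK1 and CHEK2, which fell most in the sensor class, and MRE11, which was no member. It was not a class set in advance and is description only.

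Partners in 1 complex or pathway step can be read as log2 ratios within an array, where a shift shows unequal change. The pairs were chosen after values were seen, so they are given with no test. EME1 over MUS81 was −0.89, −0.72 and −0.70 with PD0332991, against 0.99, 0.94 and 0.81 with vehicle. UBE2T over FANCL was −2.52, −2.07 and −2.18 with PD0332991, against −0.69, −0.68 and −0.62 with vehicle. FANCG over FANCF was −1.76, −1.82 and −1.59 with PD0332991, against 0.38, 0.21 and 0.25 with vehicle. Each of these ratios was lower on every PD0332991 array. CHEK1 over its upstream kinase ATR shifted by −2.24 and CHEK2 over ATM by −1.54. BARD1 over BRCA1 shifted by −0.37, the smallest shift of the 10 pairs computed.

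**Figure D4:**
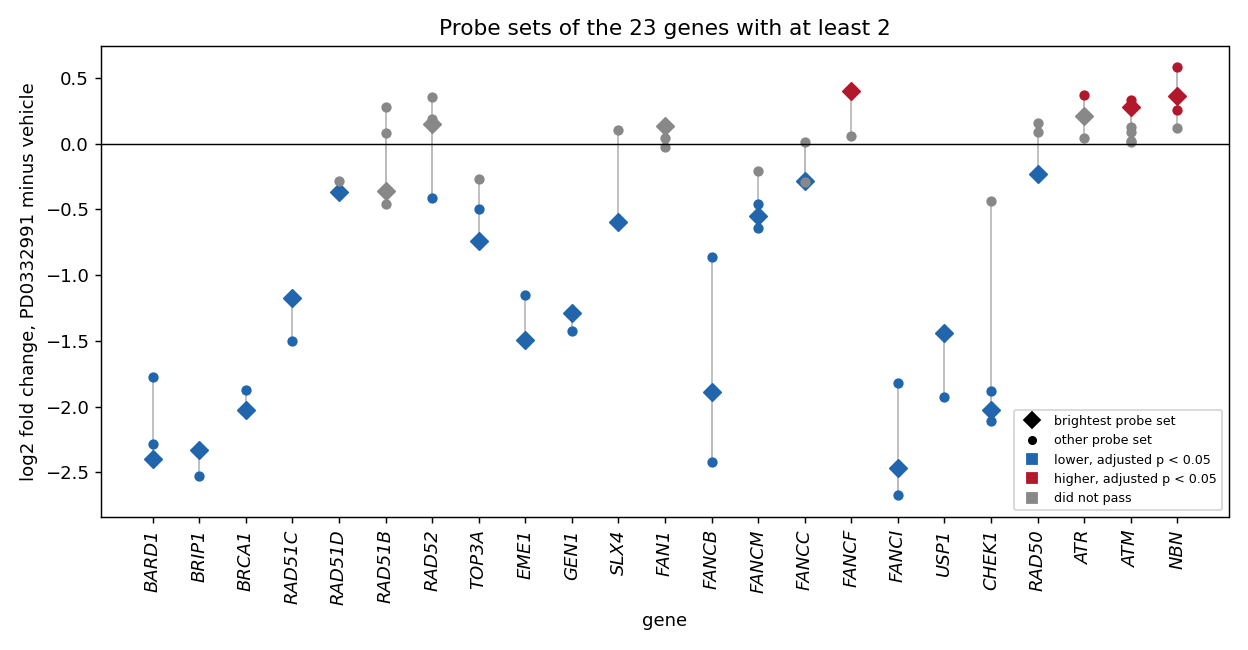
Log2 fold change (PD0332991 minus vehicle) of every single-gene probe set for the 23 genes with at least 2, with the brightest as a diamond and calls adjusted over all 41091 probe sets. No gene has probe sets called both lower and higher, and probe sets of RAD50, RAD51B, RAD52, SLX4, FAN1 and FANCC lie on both sides of 0.

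Separate probe sets of a gene mostly gave the same direction. The 39 genes had 86 probe sets, of which 47 fell and 8 rose in a limma fit over all 41091 single-gene probe sets, where 12.1% fell and 12.8% rose. In 9 of the 23 genes with at least 2 probe sets every probe set fell, and in 0 of the 23 were probe sets called in both directions. The spread was widest in CHEK1, from −2.11 to −0.44, and FANCB, from −2.42 to −0.86. The brightest probe set of USP1 gave −1.44 and the other −1.93. RAD52 had 1 dimmer probe set that fell by 0.41 on the log2 scale while the brightest did not pass.

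Of 79 other genes of the same pathways, 73 were measured and 40 fell (13.6% of all genes fell), 11 rose (15.6% of all genes rose) and 22 did not pass. The list was drawn up with earlier results of these arrays known. The median change of these 73 was −0.35 on the log2 scale. POLQ, the polymerase of theta-mediated end joining, had 94.5, 87.7 and 101 with PD0332991, against 870.3, 875 and 826 with vehicle, at −2.98 (SE 0.07, limma adjusted p = 2.4e-05). The helicase gene RECQL4 was at −2.25, ZGRF1 at −2.23, and CLSPN, the adaptor that lets ATR activate CHEK1, at −2.16. H2AX, the histone variant phosphorylated at breaks, was at −2.07, and WEE1, the kinase that restrains CDK1, at −2.06. All 6 had separate groups, which their choice as the largest changes made likely in advance. Of the 73 genes, 45 lay lower with no overlap between groups, beside 20.0% of all genes.

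Increases in that list were about as frequent as over all genes, and the 3 largest are given here. NABP1, a DNA-binding subunit of the SOSS complex, which binds single-stranded DNA, had 1157, 1105 and 995 with PD0332991, against 368, 371 and 381 with vehicle, at 1.50 (SE 0.07, limma adjusted p = 6.1e-05). INTS3, the scaffold of that complex, was at 0.47 (SE 0.07, limma adjusted p = 0.0033) and RECQL5, a helicase, at 0.70 (SE 0.08, limma adjusted p = 0.0016). The other SOSS genes, named after their values were seen, did not pass, with NABP2 at −0.31 (limma adjusted p = 0.071) and INIP at −0.13 (limma adjusted p = 0.20). When _x_at and _s_at probe sets were left out, INTS3 was at 0.03 (adjusted p = 0.86) and RECQL5 at 0.08 (adjusted p = 0.66). The probe set used for NABP1 has an ID ending in _x_at as well, and its value in that setting is not given here. The subunits of replication protein A, the main single-strand binder, are named after their values were seen, and all 3 fell, with RPA1 at −0.42, RPA2 at −0.63 and RPA3 at −1.44 on the log2 scale.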

How the data were processed

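Biotin-labelled total RNA of 6 cultures was hybridised to Affymetrix arrays, per the labels' protocols. The authors deposited 1 intensity per probe set, linear and already summarised, with the method of summarisation and scaling not given in the sources used here. No further normalization was applied. The 62 control probe sets were left out, and 41091 probe sets with 1 gene symbol were used, with symbols brought up to date by gene ID (RefSeq, GRCh38.p14). Testing used limma 3.58.1 under R 4.3.3 (two-sided, by lmFit then eBayes with 4 residual degrees of freedom) on log2(intensity + 16), with Benjamini-Hochberg adjustment over all 19775 genes. Neither detection calls nor batches are given, so low intensities cannot be told from background, and precision is limited by the number of arrays. Members, classes and lists were chosen with earlier results of these data known. Every measured member is named, with the 6 largest changes of the other pathway list and 3 against its main direction. Alternatives were a replicate block, each array left out, other scalings, pseudocounts, dim-gene filter, probe set rules, eBayes with a trend, and a stricter threshold. Code was tested on simulated data. Figures used matplotlib 3.10.9.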

Additional observations from a re-analysis of the deposited data

How the results depend on the processing

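With each array left out in turn, 25 to 28 of the 39 genes fell and 2 to 3 rose, the median of the list ran from −1.32 to −1.18, that of the effectors from −2.36 to −2.19, that of the sensors and checkpoint kinases from −0.0422 to 0.0127, and the effector minus sensor difference from −1.70 to −1.62. The same settings gave 1 to 2 sensors higher, 0 to 1 nucleases higher and XRCC2 between −0.0646 and 0.0442. The sensor median, near 0, changed sign with quantile normalization (0.0409), 75th percentile centring (0.0072), the mean of probe sets (0.0751) and no _x_at or _s_at probe sets (0.12), and XRCC2 was at 0.0549 and 0.0142 with these 2 scalings. A pseudocount of 64 gave medians of −1.06 for the list and −2.13 for the effectors and a difference of −1.54. The mean of probe sets gave −2.15 for the effectors, 0 Fanconi core genes higher, 7 other pathway genes higher and RAD50 at 0.0065. Without _x_at and _s_at probe sets the difference was −2.13, with 5 other pathway genes higher, RAD50 at 0.0913, FANCC at 0.0128, and fewer genes measured: 3 strand exchange factors lower of 6, 1 of the ubiquitin switch lower of 1, and 1 of 5 sensors lower. Counted over all probe sets, 47 fell and 8 rose. The cause of these shifts was not tested beyond the smaller number of genes.

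Whether replicate numbers pair the samples cannot be settled from 3 arrays per group, and the main fit was unpaired. Deviations of same-numbered arrays correlated at 0.13, 0.08 and 0.09 over the brighter genes, and those of other pairs at −0.155 to 0.055. Each array correlated best with its own number. With the replicate block 27 of the 39 genes fell and 2 rose, 1 of them a sensor, RAD50 (adjusted p = 0.067) and ATM (adjusted p = 0.079) lost their calls, and 2273 of all genes fell and 2520 rose. Over single genes, 661 values kept direction and side of the threshold, 32 lost the call, 8 gained it and 9 changed sign. ATR gained a call under 6 alternatives. Depth is not defined for arrays, and RAD51B and XRCC3, under 100 in both groups, lie nearest the background over both groups. With PD0332991 alone, FANCB (53.8), FANCE (57.4) and RAD54L (86.8) were under 100 too, so the size of their decreases is less certain.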
